A study of Caenorhabditis elegans with 2 samples.

Results

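The histone genes of Caenorhabditis elegans were examined for binding of D1046.2, a protein studied as a transcription factor. They are the protein-coding genes of the Ensembl annotation of the WBcel235 genome whose symbols begin with his-, hil- or htz-, 81 genes of 19973. Of these, 63 encode core histones outside the variants named next and are called replication-type: 16 H2A, 16 H2B, 15 H3 and 16 H4. Another 7 encode variants, namely htz-1 (H2A.Z), his-35 (a variant of H2A) and his-69, his-70, his-71, his-72 and his-74 (of the H3.3 type). The linker histone H1 is encoded by 9, which are his-24 and hil-1 to hil-8. The kind of his-39 and his-73 is not given by the annotation beyond a histone domain, and these 2 genes were kept apart as unclear. In the text each gene carries its RefSeq symbol, matched by WormBase identifier for all 81, because 36 of them share an Ensembl symbol with another gene and 22 have an Ensembl symbol that differs from that of RefSeq.

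The binding data came from chromatin immunoprecipitation and sequencing (ChIP-seq) of whole L4 larvae, 50 hours old. All worms were of strain OP397. They were mutant for unc-119, allele tm4063, and carried the transgene wgIs397, made from the 91F09 genomic clone, in which D1046.2 is fused to a TY1, EGFP and 3xFLAG tag next to a wild-type copy of unc-119. The fusion was precipitated through its GFP, in 2 biological replicates of 1 group. No other genotype, stage or treatment was compared, and signal from a few cells and weaker signal from many cannot be told apart in whole larvae.

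Histones package DNA into nucleosomes, with H2A, H2B, H3 and H4 in the core and H1 on the linker DNA between cores. Replication-type genes are used mainly in S phase, lie in near-identical copies, often as divergent pairs that share a promoter, and end in a conserved stem-loop in place of a poly(A) tail. Variant genes such as those of H2A.Z and H3.3 are expressed outside S phase as well, and their products are put into chromatin at genes and other sites independently of replication. In L4 larvae the germ line is proliferating, a tissue with a need for new histones.

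A peak here is an entry of the conservative list, which combines both replicates and holds 1546 regions past a threshold on the irreproducible discovery rate (IDR), a measure of how well replicate rankings match. A candidate is any of the 106921 regions in the full ranked list behind it. The lowest -log10 IDR among the peaks was 2.00, and their median signal was 95.5. The signal is the authors' own deposited value, of unstated scale, and serves only to describe and order regions within a list. Of the regions in the ranked list, 73 passed that value and were not listed as peaks, the nearest of them 106 kb from a histone gene. The replicates' own lists were shorter, with 619 and 463 peaks, and the number of reads behind any of them is unknown.

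Replication-type and other histone genes differ in how much of their sequence is unique and in how often a stem-loop sequence follows the stop codon. The stem-loop was defined from the histone genes themselves, as their commonest hairpin of 6 paired bases on each side of a loop of 4. The search ran on the coding strand within 110 bases after the stop codon. A perfect match has the same letters in both arms and any loop. It was found at 56 of the 81 histone genes, all of them replication-type. Of the 19892 other protein-coding genes 0 had it, and hairpins with other arms were not counted there. The loop is the same at 52 of the 56, shown here for his-59. It differs in its last base at the other 4 (his-20, his-22, his-52 and his-54), shown for his-52, and capitals mark the pairing arms.
his-59 stem-loop: GGCCCTctttAGGGCC
his-52 stem-loop: GGCCCTcttaAGGGCC
Another 4 replication-type genes (his-19, his-47, his-53 and his-68) had 1 or 2 mismatches, and the last 3 (his-37, his-41 and his-57) had none. Those 3 are also the replication-type genes whose annotated gene model extends past the coding sequence. At his-57 the search began after the last annotated coding base, IV:11341495, in a gene that starts at IV:11340390. The gene model of his-47, also H2A, runs only from IV:11324056 to IV:11324439. Bases after a coding sequence of that length were not searched at his-57. For the other 60 replication-type genes the annotated 5′ end is the start codon, so distances from it are distances from the coding sequence. Of the 16 variant and linker genes, 0 had the perfect form, and his-69 had a near match.

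The sequences under 5 of the histone peaks are shown, those of the 2 with the highest signal, which lie ahead of a gene, and those of the 3 in the histone cluster with the most peaks, which lie near the end of a coding sequence. Each is the RefSeq sequence of the WBcel235 genome (ce11) on the gene's coding strand, with the summit base and 10 bases on either side in capitals. The first lies upstream of his-37, at V:9546945-9547045 on the plus strand, and the next upstream of htz-1, at IV:4445864-4445964 on the plus strand. The last 3 lie in coding sequence, of his-59 at IV:7488512-7488612 (plus strand), of his-62 at IV:7486773-7486873 (plus strand) and of his-60 at IV:7487681-7487751 (minus strand), the last ending with the stop codon.
his-37 upstream: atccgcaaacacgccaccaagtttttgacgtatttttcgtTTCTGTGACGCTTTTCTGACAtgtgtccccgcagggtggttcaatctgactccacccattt
htz-1 upstream: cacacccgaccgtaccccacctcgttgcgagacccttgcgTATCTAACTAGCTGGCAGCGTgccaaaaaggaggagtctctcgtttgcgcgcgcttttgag
his-59 coding: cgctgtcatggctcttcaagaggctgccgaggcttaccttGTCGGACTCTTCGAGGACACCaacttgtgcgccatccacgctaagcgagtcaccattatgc
his-62 coding: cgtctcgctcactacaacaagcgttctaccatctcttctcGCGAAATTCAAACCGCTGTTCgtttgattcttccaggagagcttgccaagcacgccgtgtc
his-60 coding: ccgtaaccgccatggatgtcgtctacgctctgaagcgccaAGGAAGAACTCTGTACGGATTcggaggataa

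D1046.2 peaks stood in the promoters of 4 of the 81 histone genes, his-37, htz-1, hil-5 and his-24. A promoter here reaches from 500 bp upstream to 100 bp downstream of an annotated 5′ end, and over all protein-coding genes 2.34% had a peak there (468 genes). The 4 peaks were distinct from one another, and that of htz-1 also lay in the promoter of wapl-1. By kind they are 1 of 63 replication-type genes (his-37, an H4 gene without the stem-loop), 1 of 7 variants and 2 of 9 linker genes. With 4 genes called, neither the total nor the shares by kind are read as different from that background.

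The strongest peak at a histone gene was that of his-37, with a signal of 181 in the combined list, rank 156 of 1546 and a -log10 IDR of 3.53. It spans V:9546847-9547142, and the summit fell between genes, 110 bp ahead of the 5′ end. His-37 encodes histone H4 and is counted as replication-type because it is not on the list of variants. It is unlike most of that class, being among the 3 at which no stem-loop was found. In its promoter and gene body 100% of the 50-mers occur once in the genome. The replicates differed here: the signal was 62.1 in replicate 1 and 117 in replicate 2. Only the list of replicate 2 holds the peak, and in the ranked list of replicate 1 its -log10 IDR was 0.146.

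The H2A.Z gene htz-1 had the next peak, with a combined signal of 140 (rank 282, -log10 IDR 3.01) at IV:4445766-4446061. Its signal was 91.1 in replicate 1 and 46.4 in replicate 2, and only the list of replicate 1 holds it, the reverse of his-37. The summit lay 302 bp upstream of htz-1 and 174 bp upstream of wapl-1, the divergent neighbour, which encodes a protein that releases cohesin from chromosomes. The peak is thus nearer to wapl-1, and which of these genes it belongs to cannot be told from its position.

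The linker peaks were near the middle of the list. Hil-5 had a signal of 98.2 (rank 713, -log10 IDR 2.83), with 53.3 in replicate 1 and 51.5 in replicate 2. Its summit lay 31 bp downstream of the 5′ end, in the 5′ UTR. His-24, the gene of the linker histone H1.1, had a signal of 95.5 (rank 773, -log10 IDR 2.58) at X:14490014-14490309, with 61.4 in replicate 1 and 40.5 in replicate 2. Its summit lay 68 bp downstream of the 5′ end, in the coding exon. Neither replicate's own list holds either of them, so both rest on the call over both replicates. The plot of peak signal in each replicate shows the spread behind these calls.

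**Figure D1:**
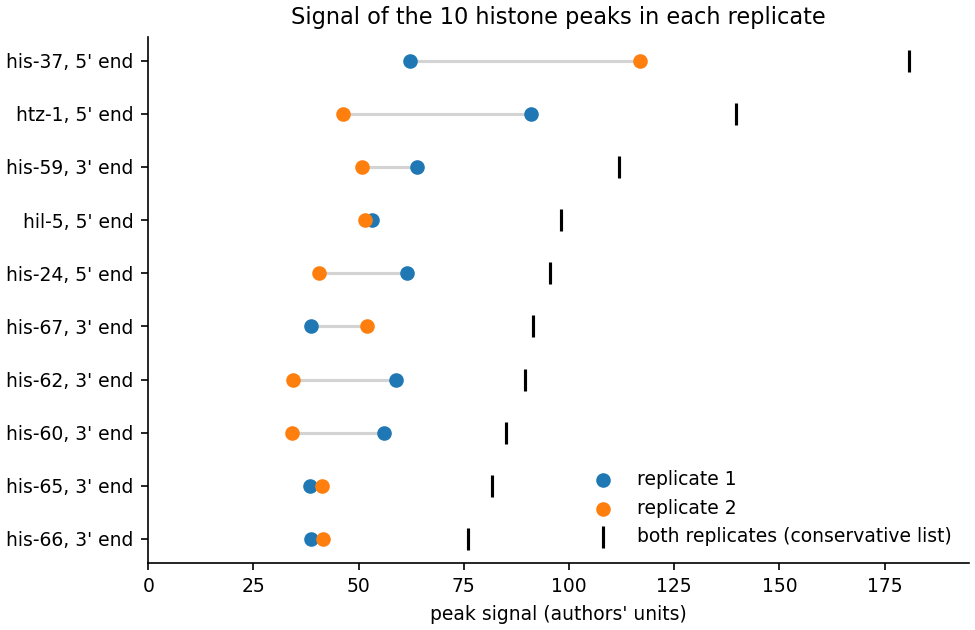
Signal of the 10 peaks at histone genes (authors' units, x axis) in replicate 1, in replicate 2 and in the conservative list that combines both, in order of the combined signal; labels give the histone gene nearest to the summit and whether the summit lies at its 5′ or 3′ end. The replicates were farthest apart at his-37 (62.1 and 117) and htz-1 (91.1 and 46.4), in opposite directions, and close at hil-5 (53.3 and 51.5), his-65 and his-66.

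Variant and linker genes without a peak had candidates below the threshold or none. Among variants, the strongest promoter candidate was 60.9 at his-72, one of the H3.3 genes. It had 53.5 in replicate 1 against 10.8 in replicate 2 and an IDR of 0.485. Its summit lay in an intron of his-72 and an exon of Y49E10.36, 316 bp upstream of an annotated 5′ end within his-72. The candidates of the other H3.3 genes reached 22.3 at his-74, 20.7 at his-71 and 6.19 at his-70, and his-69 had none. His-35 had 34.5. Among linker genes, hil-3 had 52.3 (IDR 0.106) and hil-4 49.9 (IDR 0.247), and hil-1, hil-2, hil-6, hil-7 and hil-8 had none. The median over the genes with a candidate was 28.4 for the 6 variants and 73.9 for the 4 linker genes. These medians include the peaks of htz-1, hil-5 and his-24. Over the 11284 protein-coding genes that had a candidate the median was 33.4. The H3.3 genes other than his-72 thus had no candidate or lay below the median of all genes. His-35, hil-3 and hil-4 lay above it, as did his-72, whose signal came mostly from replicate 1.

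With the promoter widened to 1000 bp upstream, 10 of the 81 genes had a peak, against 3.48% of all protein-coding genes. The 6 added genes were his-59, his-60, his-61, his-65, his-66 and his-68, all of the replication type. In each case the summit was not in the sequence ahead of the gene but at the far end of its divergent partner, whose short body lies within the widened window. The wide promoter window thus counts peaks at the ends of neighbouring histone genes.

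Counted instead by distance to the stop codon, a choice made after these positions were seen, 6 genes had a summit within 200 bp: his-59, his-60, his-62, his-65, his-66 and his-67. These are 7.41% of the histone genes, where the share over all protein-coding genes was 0.556% (111 genes). Histone genes are short, so the same count was made over genes whose coding sequence spans at most 500 bp. Of those 1840 genes 12 had such a peak, or 0.652%, and 6 of the 12 were histone genes (6 of 68, 8.82%). Because the window was set after the summits were seen and neighbouring genes lie in 3 loci, these shares are a description without a test.

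Of these loci the one on chromosome IV that holds his-61 (H2A), his-62 (H2B), his-60 (H4) and his-59 (H3) had the most peaks, 3 within 2.83 kb. The peak of his-59 at IV:7488414-7488709 was the strongest, with a signal of 112, 63.8 in replicate 1 and 50.7 in replicate 2. Its summit lay in the coding exon 97 bp before the stop codon, and the stem-loop begins 52 bp after that codon. That of his-62 at IV:7486675-7486970 had 89.5, with 58.8 and 34.4 in replicates 1 and 2, and its summit lay 93 bp before the stop codon. That of his-60 at IV:7487553-7487848 had 85.1, with 56.1 and 34.3, and its summit lay 20 bp before the stop codon. All 3 thus lie over the last part of a coding sequence, on the side away from the shared promoter, and all had the higher signal in replicate 1. Of the 4 genes his-61 alone had no peak at its end, nor any candidate within 200 bp of its stop codon. Farther from that codon, its coding exon held the strongest candidate of any histone promoter without a peak. That candidate, 490 bp upstream of his-62, had a signal of 73.7, 35.99 and 38.15 in replicates 1 and 2, and an IDR of 0.0152, beside a threshold of 0.00999.

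The pair his-66 (H2B) and his-65 (H2A), also on chromosome IV, had 1 peak beyond each end. The summit past his-65 at IV:11401508-11401803 lay 181 bp after the stop codon and had a signal of 81.8, with 38.4 in replicate 1 and 41.3 in replicate 2. The summit past his-66 at IV:11400206-11400501 lay 61 bp after it and had 76.0, with 38.7 and 41.5. These are intergenic positions beyond the stem-loops, which begin 37 and 36 bp after the stop codons. They were among the weaker peaks, at ranks 1236 and 1396 of 1546, and the peak past his-66 was the 1 of the 10 that overlapped no entry of the optimal list.

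**Figure D2:**
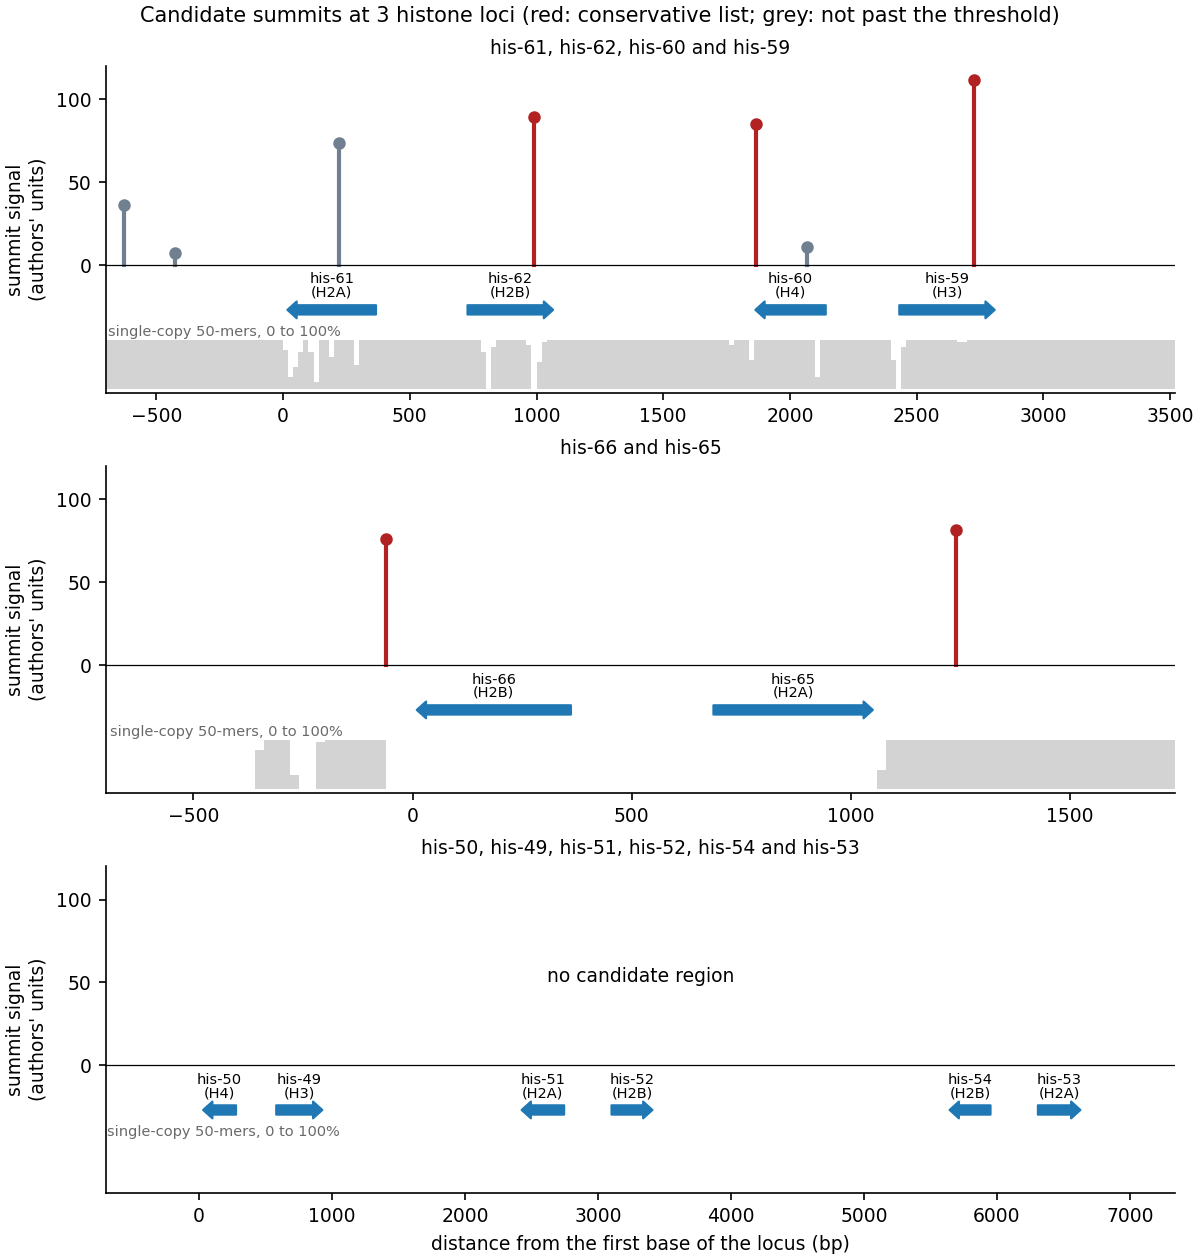
Candidate summits at 3 histone loci by distance from the first base of the locus (bp, x axis) and signal (authors' units, y axis), with genes as arrows in the direction of transcription and, in grey below, the share of 50-mers in the sequence that occur once in the genome. Summits of the conservative list (red) lie at the 3′ ends of his-62, his-60 and his-59 and outside his-66 and his-65, and the locus of his-50 to his-53, with no single-copy 50-mer, has no candidate.

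The remaining peak of this kind was that of his-67 (H4), on chromosome I, which is divergent to his-68 (H2A). It spans I:9988359-9988654 with its summit in the coding exon 55 bp before the stop codon, and had a signal of 91.4, with 38.7 in replicate 1 and 51.9 in replicate 2. A weaker candidate lay between the 5′ ends of these genes, with a signal of 48.2 and an IDR of 0.0739. Of the 6 peaks at histone gene ends, only that of his-59 was in a replicate's own list, that of replicate 1.

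Candidates of any strength, the 6 peaks included, were about as frequent at the ends of replication-type genes as over all protein-coding genes. The bodies of replication-type genes are mostly repeated, with a median of 0% single-copy 50-mers, so an absent candidate there is no measure of absent binding. Of the 63, 23 (36.5%) had a candidate within 200 bp of the stop codon, with signals from 7.06 to 112 and a median of 34.3. The share was 38% of all protein-coding genes, and 9 of the 16 variant and linker genes had one. The strongest below the threshold were those of his-45 (H3), with a signal of 67.5 at 68 bp past the stop codon, and of his-16 (H2A), with 58.4 at 37 bp before it. None of the 9 candidates at the ends of variant and linker genes was a peak, the strongest being that of his-69, with a signal of 50.0 at 132 bp before the stop codon.

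Shared promoters were examined next. There were 31 divergent pairs, 62 genes in all, in which both genes point away from each other with 5′ ends within 1000 bp: 16 of H2A with H2B, 14 of H3 with H4 and 1 of H2A with H4. The gap between the 5′ ends was 227 to 368 bp, with a median of 258. In 0 pairs did a peak summit fall between the 5′ ends, in 5 pairs a candidate did, and in 0 pairs did either gene have a peak in its 500 bp promoter. At the share of 2.34% over all genes few peaks would fall at 62 genes, so the 0 is not read as different from the background. The gaps together cover 8.35 kb and held 0.599 candidates per kb, beside 1.07 in the genome, and as given below much of this sequence is repeated. Peaks at the ends of either gene were present at 4 pairs, the same 4 in which the wider promoter held one.

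Clustered and isolated genes were compared next, a cluster being 3 or more histone genes with neighbouring 5′ ends at most 5000 bp apart. The 10 clusters hold 57 genes, and 1 of the 57 had a promoter peak, his-37 in the cluster of his-35, his-41 and his-37. Of the 24 genes in 5 pairs or alone, 3 had one. A candidate of any strength stood in the promoter of 18 of the 57 clustered genes (31.6%) and of 16 of the other 24 (66.7%), beside 56.5% of all protein-coding genes and 34 of all 81 histone genes (42.0%). By kind, candidates were at 23 of 63 replication-type genes (36.5%), 6 of 7 variants and 4 of 9 linker genes. Among replication-type genes they were at 4 of 16 H2A, 4 of 16 H2B, 7 of 15 H3 and 8 of 16 H4 genes. Of the replication-type genes alone, 17 of the 55 in clusters (30.9%) and 6 of the 8 in pairs had a candidate. Peaks were at 1 of the 55 and 0 of the 8, counts too small to set apart from each other or from the 2.34% of all protein-coding genes.

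**Figure D3:**
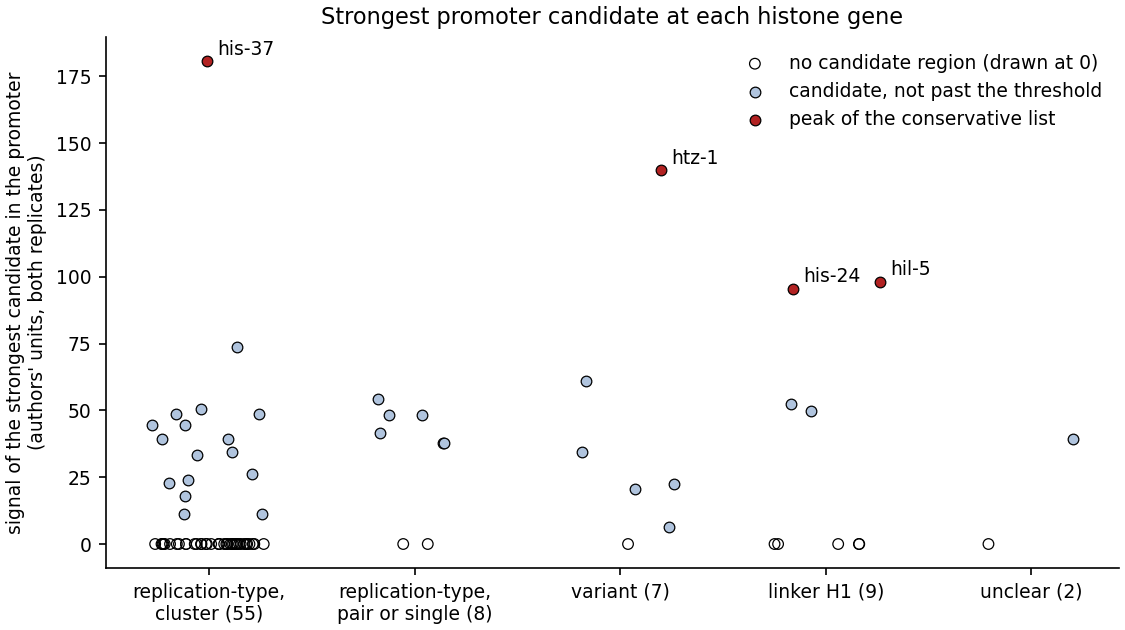
Signal of the strongest candidate in the promoter (authors' units, y axis) for each of the 81 histone genes by kind and arrangement, with open points at 0 for genes without a candidate. Most replication-type genes in clusters have none (38 of 55), and the 4 peaks are those of his-37, htz-1, hil-5 and his-24.

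The copy number of the sequence moved with these counts. Of all positions in histone promoters, 46.3% start a 50-mer that occurs once in the genome. The median over promoters was 0% for replication-type genes and 100% for variants, for linker genes and for all protein-coding genes. Of the 40 histone genes whose promoters were less than 50% single-copy, 1 had a candidate, that of his-47 with a signal of 23.9. All 8 genes between 50% and 90% had one, and so did 25 of the 33 above 90% (75.8%). Over all protein-coding genes these shares were 24.6% of 483, 60.02% of 1078 and 57.1% of 18412. The 4 genes with a promoter peak all lay above 90%. The labels and files do not say how reads from repeated sequence were placed or removed, and the part of copy number in the counts by kind and arrangement was not tested. An absent candidate at a repeated gene is therefore no measure of absent binding.

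**Figure D4:**
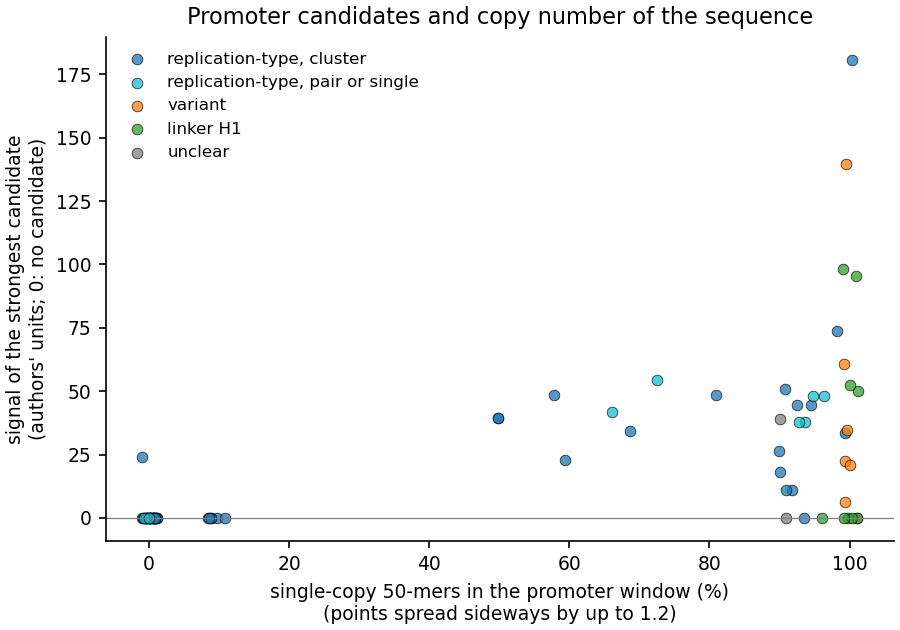
Signal of the strongest promoter candidate (authors' units, 0 where there is none) against the share of 50-mers in the promoter that occur once in the genome (%), for each of the 81 histone genes. Points at the left, with little single-copy sequence, lie at 0 apart from his-47 (23.9), and all peaks lie at the right.

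Among the loci, each counted with 500 bp on either side, the relation was uneven. On chromosome V, the cluster of 6 genes from his-50 to his-53 (6.66 kb, 0% single-copy) and that of 8 from his-28 to his-18 (9.05 kb, 5.42%) had 0 candidates, where the genome averaged 1.07 per kb. The cluster of 13 genes from his-16 to his-42 on chromosome II (10.9 kb, 15.3%) had 4, or 0.335 per kb. Other clusters with little single-copy sequence did have candidates: 1.27 per kb from his-47 to his-45 (26.6% single-copy), 0.825 from his-55 to his-57 (39.0%) and 1.11 from his-29 to his-34 (48.3%). These shares are averages over a locus, not of the sequence at each candidate. From his-29 to his-34, the strongest promoter candidate lay at his-31 and his-32, whose promoters were 92.6% and 94.4% single-copy. The promoters of his-29, his-30, his-33 and his-34 were 0% single-copy and had none. That of his-47 (0.181%) did hold one. Single genes in unique sequence ranged widely, with 0 per kb at hil-2 and hil-7, 0.494 at hil-5, 0.798 at hil-8 and up to 2.46 at his-74. Hil-1 (79.6% single-copy) had 0 candidates as well. The cluster of his-61, his-62, his-60 and his-59 is 94.9% single-copy and had 6. The pair his-66 and his-65 is 33.8% single-copy, with 0% in both coding sequences, and its peaks lie in the flanks, where single-copy sequence begins. Over the whole peak region, single-copy 50-mers made up 99.2% of the peak of his-59, 87.0% of that of his-62 and 96.0% of that of his-60. They made up 100% of the peaks of his-67 and his-65 and 60.3% of that of his-66.

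Of the 33 histone genes with promoters above 90% single-copy, 8 held no candidate. These were hil-1, hil-2, hil-7, hil-8 and his-69 (100% single-copy), hil-6 (95.1%), his-61 (93.1%) and his-39 (90.8%). Over all protein-coding genes above 90%, 57.1% had a candidate, so absence there is not read as particular to histone genes.

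Among histone genes without a peak in the 500 bp promoter (his-62 and his-67 have one at the 3′ end, and his-68 one in the wider window), the strongest promoter candidates after those of his-62 and his-72 were 54.3 at his-64 (H4), in the coding exon of its partner his-63, and 52.3 at hil-3. The next were 50.7 at his-42 (H3, IDR 0.138) and 49.9 at hil-4. His-5 and his-6 shared a candidate of 48.6 in the coding exon of his-6, with 24.8 in replicate 1 and 8.02 in replicate 2, and his-67 and his-68 shared the one of 48.2 between their 5′ ends. Next came his-31 (H4) and his-32 (H3), which shared a candidate of 44.6 between theirs. The first 10 genes were all below 76.0, the lowest signal among the histone peaks, and in 3 of them (his-62, his-64 and his-5) the candidate lay in the coding exon of the divergent partner.

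No histone peak was near a tRNA gene. The closest tRNA gene to any histone gene was 2462 bp from hil-3, and 0 histone genes had one within 500 or 2000 bp. The same shares over all protein-coding genes and all peaks are not given here, so the 0 is not read as particular to histone genes. The nearest tRNA gene to a histone peak was 3879 bp from the summit at his-24, and the summits of his-37, hil-5 and htz-1 were 43.4, 68.5 and 416 kb from one.

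Base composition differed among the peaks. In the sequence 50 bases to either side of the summit GC content was 47.5% at his-37, 58.4% at htz-1, 50.5% at hil-5 and 61.4% at his-24. At the gene ends it was 56.4% at his-59, 51.5% at his-62, 44.6% at his-60, 55.4% at his-67, 36.6% at his-65 and 35.6% at his-66. The median over all peaks was 49.5%, with quartiles of 44.6% and 55.4%. The histone peaks thus ranged from below the lower to above the upper quartile, the lowest being the intergenic ones past his-65 and his-66.

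A further list of 19 genes for histone supply, none of them members by symbol, was read in the same way: variants outside the naming rule, the stem-loop binding protein gene cdl-1, and chaperones and deposition factors. Promoter peaks were at 3 of the 19 (15.8%, beside 2.34% of all protein-coding genes), and with 3 genes called this is a description. Unc-85, which encodes the H3-H4 chaperone ASF1, had a signal of 250 with its summit 299 bp upstream and a -log10 IDR of 4.10, above any histone gene. Lin-53, the gene of an RbAp46/48-type histone binding protein, had 109 at 249 bp upstream. Nasp-2, named for the chaperone NASP, had 80.2 at 251 bp upstream, with a -log10 IDR at the threshold (2.00). Replicate signals and other genes at these 3 peaks are not given here. Cdl-1 had a candidate of 26.6, and the FACT subunit gene spt-16 one of 69.1 (-log10 IDR 1.72). Candidates were at 13 of the 19 in all, beside 56.5% of all protein-coding genes. Their signals ran from 4.51 to 250 with a median of 46.4, beside 33.4 over all genes with a candidate. The centromeric H3 gene hcp-3 had one of 40.3, and its relative cpar-1 had none.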

How the data were processed

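D1046.2 binding was measured by ChIP-seq in 2 replicates of 1 group. Per the file headers and listings, the authors deposited IDR thresholded and ranked regions on ce11, for each replicate and for both, derived from filtered alignments and a control, which was not analysed here. Each region has a deposited score (the scaled IDR score, at least 830 among peaks), a signal on an unstated scale and, in ranked lists, the authors' -log10 IDR. For the aligner, the peak caller and the handling of repeated reads, the labels and files name nothing, and depth is unknown.

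Summits were set against Ensembl release 115 5′ ends and coding ends, and RefSeq sequence and symbols of the same build. Single-copy shares count 50-mers found once on either strand. Replicate signals come from each replicate's ranked list, from the overlapping region with the nearest summit. No test was made, because there is 1 group and the members and lists were chosen with earlier results of these data known. Named genes are every member with a peak within 500 or 1000 bp, the 10 others with the strongest candidates (counted without a peak within 500 bp, with the next added), every variant and linker gene and genes sharing a named peak; others named were chosen after their values were seen. Counting functions were tested on simulated data. Alternatives were the optimal list, each replicate alone, the stronger 50% of the peaks, other windows, distances, overlaps and k. Python 3.11.15, numpy 2.4.6, pandas 2.3.3 and matplotlib 3.10.9 were used.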

Additional observations from a re-analysis of the deposited data

How the results depend on the processing

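No paired analysis was possible because there is only 1 group. Of 81 values recomputed under alternatives, 48 stayed within the tolerance and 33 did not. The tolerance was a factor of 1.5 for a count (a change to or from 0 exceeds it) and the 95% binomial interval for the single-copy share. The optimal list gave 5 promoter peaks, adding his-62, and so 2 clustered, 2 replication-type and 1 divergent promoter with a peak. Each replicate's own list alone kept 1 promoter peak (htz-1 in replicate 1, his-37 in replicate 2), each a distinct peak. Of these 500 bp peaks 0 to 1 were clustered, 0 to 1 isolated or paired, 0 to 1 replication-type and 0 to 1 variant or linker. With the promoter at 1000 bp they kept 1 to 2 genes. Within 200 bp of a stop codon they kept 0 to 1, that of his-59 in replicate 1. The stronger 50% of the peaks kept all 4 promoter peaks, but 5 with the 1000 bp window, and 1 at a stop codon, that of his-59. A 1000 bp promoter gave 10 genes and 10 distinct peaks, 4 clustered, 6 isolated or paired, 7 replication-type and 4 divergent promoters, and any overlap of the peak interval with the promoter gave 8 genes and 8 distinct peaks, 4 clustered, 5 replication-type and 3 divergent. Taking divergent genes up to 2000 bp apart gave 1 divergent promoter with a peak. The single-copy share of promoter positions was 43.4% for 36-mers and 50.5% for 100-mers. The peaks at stop codons were 5 within 100 bp, 6 within 300 bp and 5 in the optimal list, which lacks his-66. Why the replicate lists are shorter was not tested. Limits are the unknown depth, the unknown treatment of repeated sequence, and the absence of a comparison group.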

Other observations

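Within 2 kb of histone genes, 3 further peaks belonged by position to other genes. One near his-35 lay 172 bp upstream of the spindle checkpoint gene mdf-1, with a signal of 98.4. Another stood in an intron of Y75B8A.33 near his-72, with 98.0. The last, downstream of htz-1, lay over an exon of R08C7.17 and the noncoding gene R08C7.19 in an intron of chat-1, with 84.6. Its summit was also 746 bp upstream of an annotated 5′ end of chat-1.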
